A study of Mus musculus with 12 samples.

Results

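The transcripts described here are 31 genes that mark B cells or belong to the MHC class II antigen presentation pathway, measured in regulatory T cells (Treg) sorted from mouse spleen. They were chosen by gene name, and each gene was read from the probe set annotated to that gene alone. Of the 31 genes, 29 had such a probe set, 1 each, among 22180 genes on the array. For the other 2, Cd72 and Cd74, the only probe set was annotated to a further gene as well (Tesk1 and Mir5107), and no value is given for them. The values are the authors' log2 expression values, on which a difference of 1 is a 2-fold change.

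All animals were DEREG mice, a transgenic line in which the Foxp3 promoter drives the receptor for diphtheria toxin, joined to GFP, and the toxin (DTx) then removes cells that express the transgene. All were sensitised and challenged with ovalbumin to give allergic airways disease. The iTreg group had its endogenous Treg depleted with DTx at 40 ng/g and then received intravenous immunoglobulin (IVIg) at 2 g/kg. The e_iTreg group received the same IVIg with no DTx and is labelled as mixed, with endogenous as well as induced Treg. The eTreg group received human serum albumin (HSA) at 2 g/kg, by the series design also with no DTx, although the growth protocol is worded alike for all samples and places DTx before either protein. Each group had 4 arrays, described as biological replicates. Strain background, age and the surface markers of the sort gate are not given in the sources used here.

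B cells recognise antigen through a surface immunoglobulin that signals through the paired chains CD79A and CD79B, and the transcription factors EBF1 and PAX5 hold them in the B lineage. B cells, dendritic cells and macrophages also take up protein, cut it, and show the peptides to CD4 T cells on MHC class II molecules, whose genes are switched on by the coactivator CIITA. Mouse T cells are known to transcribe little of most of these genes, so in a Treg sort the set serves as a gauge of RNA from other cells. Not every gene of the set need do so. The slopes on Cd79a, given below, were smallest for Vpreb3, H2-Ob, H2-Oa and Pou2f2. Small as its slope was, Pou2f2 had r = 0.75 with Cd79a with group means removed (exact permutation p = 0.00796). In a bulk sample more cells of a type and more RNA per cell cannot be told apart.

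The sort was checked against T cell and Treg genes. Foxp3, the lineage factor of Treg, lay between 11.84 and 12.43 in iTreg, between 12.08 and 12.56 in e_iTreg and between 12.33 and 12.54 in eTreg. Cd3e, a chain of the T cell receptor complex, lay between 12.08 and 12.30 in iTreg, between 12.01 and 12.34 in e_iTreg and between 12.04 and 12.29 in eTreg, and Cd4 lay between 10.38 and 10.57 in iTreg, between 10.33 and 10.53 in e_iTreg and between 10.37 and 10.55 in eTreg. The mean of 10 T cell genes lay between 11.49 and 11.55 in iTreg, between 11.41 and 11.57 in e_iTreg and between 11.44 and 11.48 in eTreg. The T cell genes thus differed little between arrays, and array correlations over all rows ranged from 0.954 to 0.988. Of 13 Treg genes, 3 were lower in iTreg than in eTreg. They were Ikzf4, Lrrc32 and Izumo1r, at -1.04, -0.80 and -0.46 (limma adjusted p = 0.00075, 0.0102 and 0.0149). Capg was higher, at 0.56 (limma adjusted p = 0.00843).

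B cell and class II transcripts differed most between arrays of the same group, not between groups. The mean of the 29 genes was 7.81, 7.48, 7.59 and 7.70 in iTreg replicates 1 to 4, 7.99, 8.21, 7.77 and 6.70 in e_iTreg replicates 1 to 4, and 8.27, 8.10, 6.74 and 6.68 in eTreg replicates 1 to 4. The lowest 3 arrays were e_iTreg replicate 4 and eTreg replicates 3 and 4, and the 4 iTreg arrays lay close together above them, below the other e_iTreg and eTreg arrays except that iTreg replicate 1 exceeded e_iTreg replicate 3. In each of these 3 arrays, 22 of the 29 genes were lower than in all 9 other arrays, a pattern met by 1.91% of all 23521 probe sets tested. The 3 arrays were singled out by these genes, so that count describes them and tests nothing. The 7 genes outside the pattern were Btk, Tnfrsf13c, Vpreb3, Pou2f2, H2-DMa, H2-Oa and H2-Ob.

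**Figure D1:**
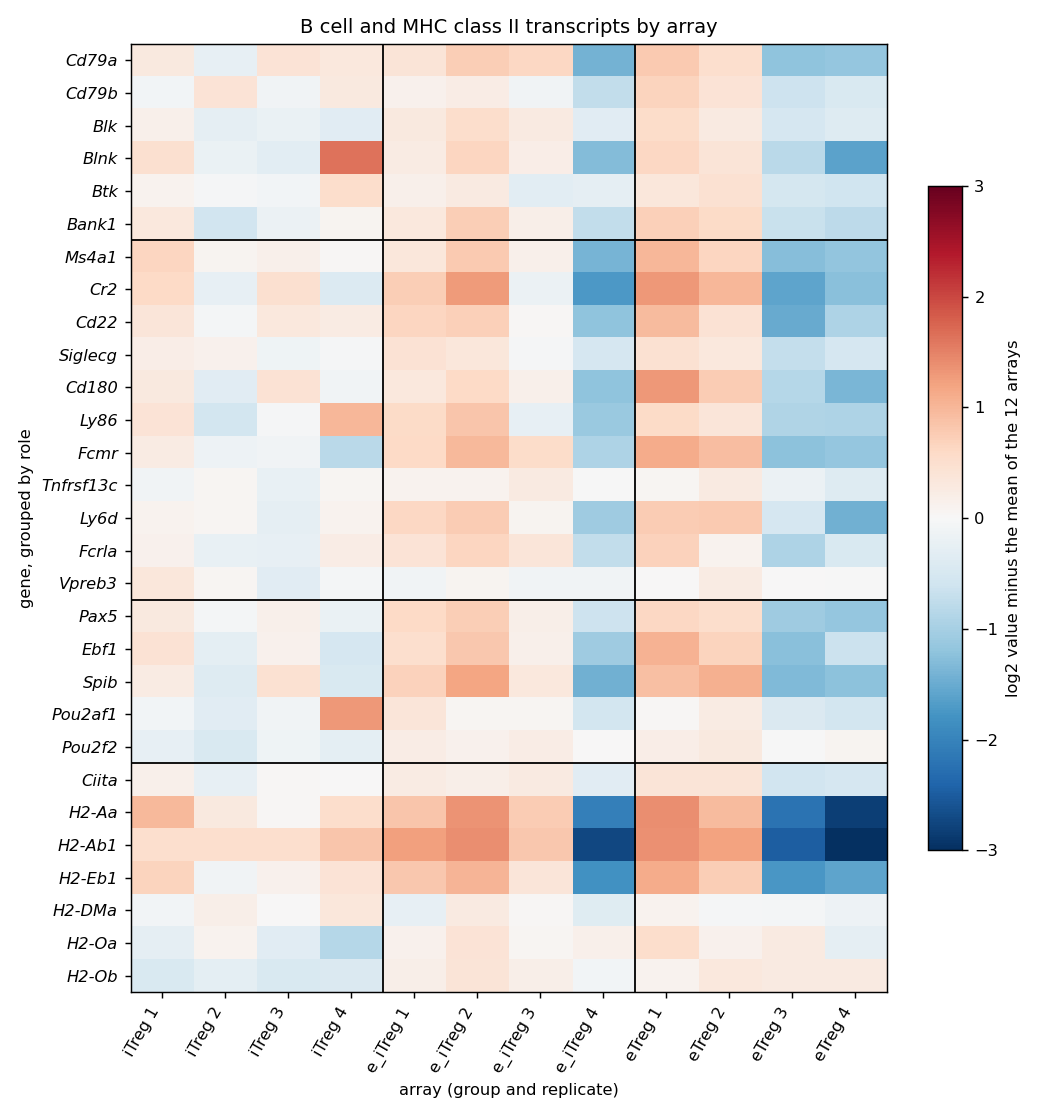
Log2 value of each of the 29 genes (rows, grouped by role) minus its own mean over the 12 arrays, by array (columns, 4 arrays per group in the order iTreg, e_iTreg, eTreg). Blue columns mark e_iTreg replicate 4 and eTreg replicates 3 and 4, where 22 genes were below all 9 other arrays, while the rows of H2-Ob, Pou2f2, H2-DMa and Vpreb3 stay pale there.

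The spread within groups was large against that of other genes. The residual SD of the fit, which is the spread of replicates about their group mean, had a median of 0.680 over the 29 genes, against 0.172 over all 23521 probe sets. For 24 of the 29 genes it was among the highest 10% of all probe sets. H2-Ab1 had the residual SD of rank 5 (1.78) and H2-Aa that of rank 13 (1.55) among all probe sets. At the other end were Pou2f2 (0.120) and H2-Ob (0.132), which 84.4% and 77.3% of all probe sets exceeded.

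Of the B cell receptor complex and its signalling proteins, 6 genes were measured. Cd79a, the signalling chain of the receptor, was 7.86, 7.32, 7.97 and 7.89 in iTreg replicates 1 to 4, 7.94, 8.30, 8.17 and 6.15 in e_iTreg replicates 1 to 4, and 8.34, 8.06, 6.35 and 6.41 in eTreg replicates 1 to 4. Its values in the 3 low arrays did not exceed 6.41, and those of the other 9 arrays were at least 7.32. Its partner chain Cd79b lay between 8.09 and 8.59 in iTreg, between 7.46 and 8.42 in e_iTreg and between 7.57 and 8.85 in eTreg, a narrower spread with the same 3 arrays lowest. The Src family kinase Blk lay between 6.46 and 6.93 in iTreg, between 6.46 and 7.31 in e_iTreg and between 6.29 and 7.34 in eTreg, and the scaffold protein Bank1 lay between 7.81 and 8.72 in iTreg, between 7.67 and 9.14 in e_iTreg and between 7.61 and 9.11 in eTreg. Both had the 3 low arrays at the bottom.

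Blnk, the adaptor that links the receptor to its downstream enzymes, was 7.79, 7.12, 7.003 and 8.95 in iTreg replicates 1 to 4, 7.55, 7.96, 7.50 and 6.01 in e_iTreg replicates 1 to 4, and 7.92, 7.70, 6.49 and 5.71 in eTreg replicates 1 to 4. Its highest value was in iTreg replicate 4, more than 1 log2 unit above the other iTreg arrays. Btk, a kinase of the same pathway that myeloid cells also express, lay between 5.97 and 6.58 in iTreg, between 5.75 and 6.33 in e_iTreg and between 5.45 and 6.52 in eTreg, with iTreg replicate 4 again the highest array of its group.

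Surface proteins of B cells followed the same arrays with different reach. Ms4a1, which encodes CD20, was 7.95, 7.38, 7.46 and 7.35 in iTreg replicates 1 to 4, 7.65, 8.08, 7.46 and 5.91 in e_iTreg replicates 1 to 4, and 8.30, 7.95, 6.02 and 6.12 in eTreg replicates 1 to 4. Cr2, the complement receptor of mature B cells, was 7.42, 6.58, 7.29 and 6.39 in iTreg replicates 1 to 4, 7.55, 8.08, 6.64 and 5.09 in e_iTreg replicates 1 to 4, and 8.12, 7.80, 5.22 and 5.57 in eTreg replicates 1 to 4. The highest eTreg array thus exceeded the lowest 4.87-fold for Ms4a1 and 7.44-fold for Cr2, while the 4 iTreg arrays lay within 1.52-fold and 2.03-fold. Cd22, an inhibitory lectin of the B cell receptor, lay between 7.81 and 8.25 in iTreg, between 6.68 and 8.59 in e_iTreg and between 6.37 and 8.82 in eTreg, and the related Siglecg lay between 6.89 and 7.22 in iTreg, between 6.52 and 7.45 in e_iTreg and between 6.31 and 7.47 in eTreg.

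Cd180, a Toll-like receptor relative, lay between 5.28 and 6.05 in iTreg, between 4.42 and 6.22 in e_iTreg and between 4.26 and 6.93 in eTreg. Ly86, which encodes the MD-1 protein that pairs with CD180 and is also made by myeloid cells, was 7.72, 6.75, 7.27 and 8.30 in iTreg replicates 1 to 4, 7.88, 8.14, 7.06 and 6.19 in e_iTreg replicates 1 to 4, and 7.88, 7.66, 6.40 and 6.37 in eTreg replicates 1 to 4. In iTreg replicate 4 it was higher than in any other array, which Cd180 was not. Fcmr, the receptor for the Fc part of IgM, was 8.77, 8.38, 8.43 and 7.72 in iTreg replicates 1 to 4, 9.13, 9.50, 9.08 and 7.60 in e_iTreg replicates 1 to 4, and 9.65, 9.46, 7.30 and 7.38 in eTreg replicates 1 to 4, with iTreg replicate 4 the lowest of its group.

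Ly6d, a marker of B lineage commitment, lay between 7.51 and 7.90 in iTreg, between 6.72 and 8.54 in e_iTreg and between 6.34 and 8.58 in eTreg, and the Fc receptor-like protein Fcrla lay between 6.66 and 7.13 in iTreg, between 6.18 and 7.56 in e_iTreg and between 5.98 and 7.60 in eTreg. Another 2 surface genes showed little of the pattern. Tnfrsf13c, the receptor for the survival factor BAFF, lay between 7.48 and 7.75 in iTreg, between 7.70 and 7.96 in e_iTreg and between 7.32 and 7.96 in eTreg. Vpreb3, known from early B cell development, lay between 5.79 and 6.47 in iTreg, between 6.01 and 6.21 in e_iTreg and between 6.11 and 6.38 in eTreg, so its values in the 3 low arrays fell inside the range of the others.

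**Figure D2:**
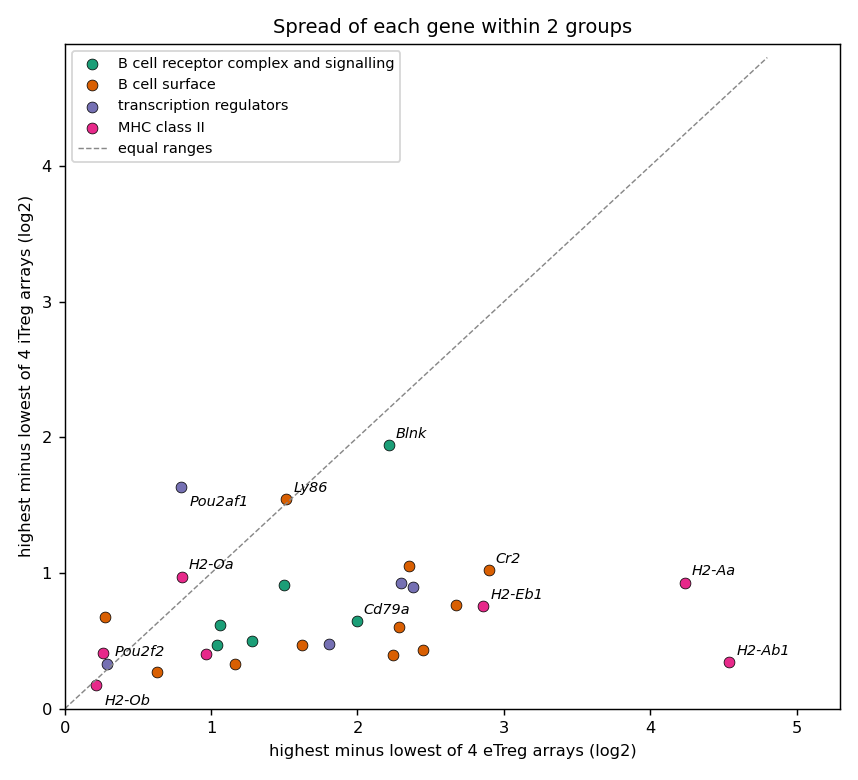
Highest minus lowest log2 value over the 4 iTreg arrays (vertical axis) against the same over the 4 eTreg arrays (horizontal axis), 1 point per gene, coloured by role, with a dashed line of equal ranges. The range was wider in eTreg for 23 of the 29 genes, most of all for H2-Ab1 (0.34 in iTreg and 4.54 in eTreg), and wider in iTreg for Pou2af1 (1.64 in iTreg and 0.79 in eTreg).

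Of the transcription regulators, 3 had the 3 low arrays well below the others. Pax5, the guardian of B cell identity, lay between 6.65 and 7.13 in iTreg, between 6.21 and 7.57 in e_iTreg and between 5.67 and 7.47 in eTreg. Ebf1, which acts with it, lay between 6.48 and 7.41 in iTreg, between 5.90 and 7.79 in e_iTreg and between 5.73 and 8.02 in eTreg, and the ETS factor Spib lay between 5.57 and 6.47 in iTreg, between 4.58 and 7.21 in e_iTreg and between 4.70 and 7.08 in eTreg. In all of them iTreg replicate 4 was the lowest array of its group.

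Pou2af1, a coactivator of octamer-binding factors that plasma cells also express, went the other way in that array. It was 7.02, 6.77, 7.01 and 8.41 in iTreg replicates 1 to 4, 7.46, 7.16, 7.15 and 6.56 in e_iTreg replicates 1 to 4, and 7.14, 7.35, 6.66 and 6.56 in eTreg replicates 1 to 4. Its partner Pou2f2, the octamer-binding factor Oct-2, had a pattern of its own, with 7.69, 7.49, 7.82 and 7.66 in iTreg replicates 1 to 4, 8.16, 8.07, 8.16 and 7.97 in e_iTreg replicates 1 to 4, and 8.14, 8.23, 7.94 and 8.02 in eTreg replicates 1 to 4. Every iTreg array lay below every e_iTreg and eTreg array, and the 3 arrays low in B cell transcripts, although the lowest of their own groups, were above all iTreg arrays.

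The class II genes differed widely in how much they varied within groups, with residual SDs between 0.132 (H2-Ob) and 1.78 (H2-Ab1). H2-Ab1, the beta chain of the classical class II molecule I-A, was 10.55, 10.56, 10.56 and 10.89 in iTreg replicates 1 to 4, 11.28, 11.44, 10.87 and 7.32 in e_iTreg replicates 1 to 4, and 11.43, 11.25, 7.58 and 6.89 in eTreg replicates 1 to 4. Within eTreg the highest array exceeded the lowest 23.3-fold, within e_iTreg 17.4-fold and within iTreg 1.27-fold. H2-Aa, its alpha chain, was 9.77, 9.09, 8.84 and 9.32 in iTreg replicates 1 to 4, 9.64, 10.15, 9.56 and 6.74 in e_iTreg replicates 1 to 4, and 10.20, 9.75, 6.59 and 5.97 in eTreg replicates 1 to 4. H2-Eb1, the beta chain of I-E, lay between 9.05 and 9.81 in iTreg, between 7.34 and 10.17 in e_iTreg and between 7.41 and 10.27 in eTreg. Ciita, the coactivator of these genes, was 7.51, 7.11, 7.41 and 7.37 in iTreg replicates 1 to 4, 7.62, 7.55, 7.63 and 7.03 in e_iTreg replicates 1 to 4, and 7.76, 7.74, 6.79 and 6.87 in eTreg replicates 1 to 4, with the same 3 arrays lowest over a much smaller span.

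H2-DMa, a chain of the DM protein that loads peptides onto class II molecules, lay between 9.26 and 9.67 in iTreg, between 8.97 and 9.61 in e_iTreg and between 9.17 and 9.44 in eTreg. H2-Oa and H2-Ob encode the DO protein, which restrains DM. H2-Oa was 8.57, 8.96, 8.50 and 7.98 in iTreg replicates 1 to 4, 8.97, 9.26, 8.91 and 8.998 in e_iTreg replicates 1 to 4, and 9.37, 8.98, 9.10 and 8.57 in eTreg replicates 1 to 4. H2-Ob was 7.77, 7.94, 7.77 and 7.80 in iTreg replicates 1 to 4, 8.40, 8.62, 8.41 and 8.15 in e_iTreg replicates 1 to 4, and 8.33, 8.55, 8.51 and 8.50 in eTreg replicates 1 to 4. The 4 iTreg arrays of H2-Ob were below all 8 others, as for Pou2f2, and the eTreg arrays low in B cell transcripts were as high as the other eTreg arrays.

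CIITA acts on class II genes through a conserved promoter module with an X box and a Y box. Promoter windows (250 bases before to 50 after the gene start) from RefSeq on GRCm38.p6 were held for 24 of the 31 genes. The searches among these genes covered 28 windows. They left out a chromosome that holds no gene given a value here, so the 28 may not cover all 24 genes. The stretch is shown for the 4 class II genes that held both cores, at the spacing given below, among these 28 windows. Of them, H2-Aa and H2-Eb1 swung with the B cell genes and H2-Oa and H2-Ob did not. Capitals mark the letters GCAAC, taken here as the X core, and GATTGG, taken as the Y core.
H2-Aa, chr17:34287855-34287916, minus strand: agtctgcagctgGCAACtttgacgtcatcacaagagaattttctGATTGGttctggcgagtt
H2-Eb1, chr17:34305764-34305824, plus strand: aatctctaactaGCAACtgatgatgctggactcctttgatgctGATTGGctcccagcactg
H2-Oa, chr17:34092291-34092352, plus strand: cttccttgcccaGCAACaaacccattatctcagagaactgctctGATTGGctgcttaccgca
H2-Ob, chr17:34238806-34238864, plus strand: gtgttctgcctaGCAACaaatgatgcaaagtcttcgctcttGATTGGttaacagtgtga
The capitals are separated by 27 bases in H2-Aa, 26 in H2-Eb1, 27 in H2-Oa and 24 in H2-Ob. GCAAC followed by GATTGG at a spacing of 24 to 27 bases, on either strand, was found in 0.0944% of all 32851 windows. These letters were chosen after the 4 sequences were read, so the share is a description. The longer Y box CTGATTGG was in the windows of H2-Aa, H2-Eb1 and H2-Oa and in 4.10% of all windows. The octamer ATGCAAAT, bound by Oct-2, was in those of Blnk and Vpreb3 and in 1.74% of all. The longer consensus X box was in those of H2-Eb1 and H2-Ob, not in those of H2-Aa and H2-Oa, and in 0.895% of all. Each search covered both strands. H2-Eb1 and H2-Ob thus both hold the consensus X box. Whether any of these letters bear on how the genes varied over the arrays was not tested.

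How far each gene moved with Cd79a was described by a slope. With group means removed, a rise of 1 log2 unit in Cd79a went with a rise of 2.00 in H2-Ab1, 1.72 in H2-Aa, 1.32 in H2-Eb1, 1.28 in Cr2 and 1.15 in Spib. The slope was 0.40 for Ciita, 0.46 for Cd79b and 0.43 for Siglecg. It was 0.10 for Pou2f2, 0.08 for H2-Oa, 0.05 for H2-Ob and 0.04 for Vpreb3. These slopes are of log2 values over 12 arrays that include the 3 low ones, describe mainly the distance of those arrays from the rest of their groups, and are no measure of relation.

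The 12 arrays fell into 2 sets on Cd79a, the 3 low arrays and the other 9, so no correlation over all of them is given as a measure of relation. By count, 23 of the 28 other genes had a positive Pearson r with Cd79a over all 12 arrays with a permutation p under 0.05 (100000 resamples, two-sided), at r of at least 0.59, which 2.53% of all other probe sets reached. With group means removed and values permuted within groups, 22 of 28 did so by the exact test, at r of at least 0.58, which 5.48% of all other probe sets reached. The shares given for r, here and over 9 arrays, go by r alone and ask for no p. Within groups Btk (r = 0.74) and Tnfrsf13c (r = 0.64) also exceeded 0.58 but did not pass (exact permutation p = 0.0792 and 0.0922). The count of 22 within groups was 8 without e_iTreg replicate 4 and 1 (Cd180) without the 3 low arrays. These p-values are not adjusted, because the genes were chosen with earlier results of these data known.

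Among the 9 other arrays 13 of the 28 genes had a positive r with an exact two-sided permutation p under 0.05, at r of at least 0.66, which 6.04% of all other probe sets reached. Group means were not removed here, so a group difference shared with Cd79a counts towards r. One of the 13, Pou2f2, had not passed over all 12 arrays without group means removed (permutation p = 0.577). With group means removed, it did pass over the 12 arrays (r = 0.75, exact permutation p = 0.00796). Bank1 had r = 0.85 and rho = 0.72 (exact permutation p = 0.00394 and p = 0.0369, n = 9). Ciita had r = 0.84 and rho = 0.78 (exact permutation p = 0.00691 and p = 0.0172, n = 9). For H2-Ab1, r was 0.70 and rho 0.75 (exact permutation p = 0.0225 and p = 0.0255, n = 9). Without iTreg replicate 2 and eTreg replicate 1, the arrays farthest from the median of Cd79a, r fell to 0.55 for Bank1, 0.41 for Ciita and 0.59 for H2-Ab1 (n = 7). These relations therefore rest in part on those arrays. Over the same 9 arrays with group means removed, the median r of the 28 genes was 0.36 and only 1 (Cd180) passed. Cd79b (r = 0.04, rho = 0.13, exact permutation p = 0.916 and p = 0.744, n = 9) and Pou2af1 (r = 0.13, rho = 0.20, exact permutation p = 0.685 and p = 0.613, n = 9) did not follow Cd79a among these arrays.

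**Figure D3:**
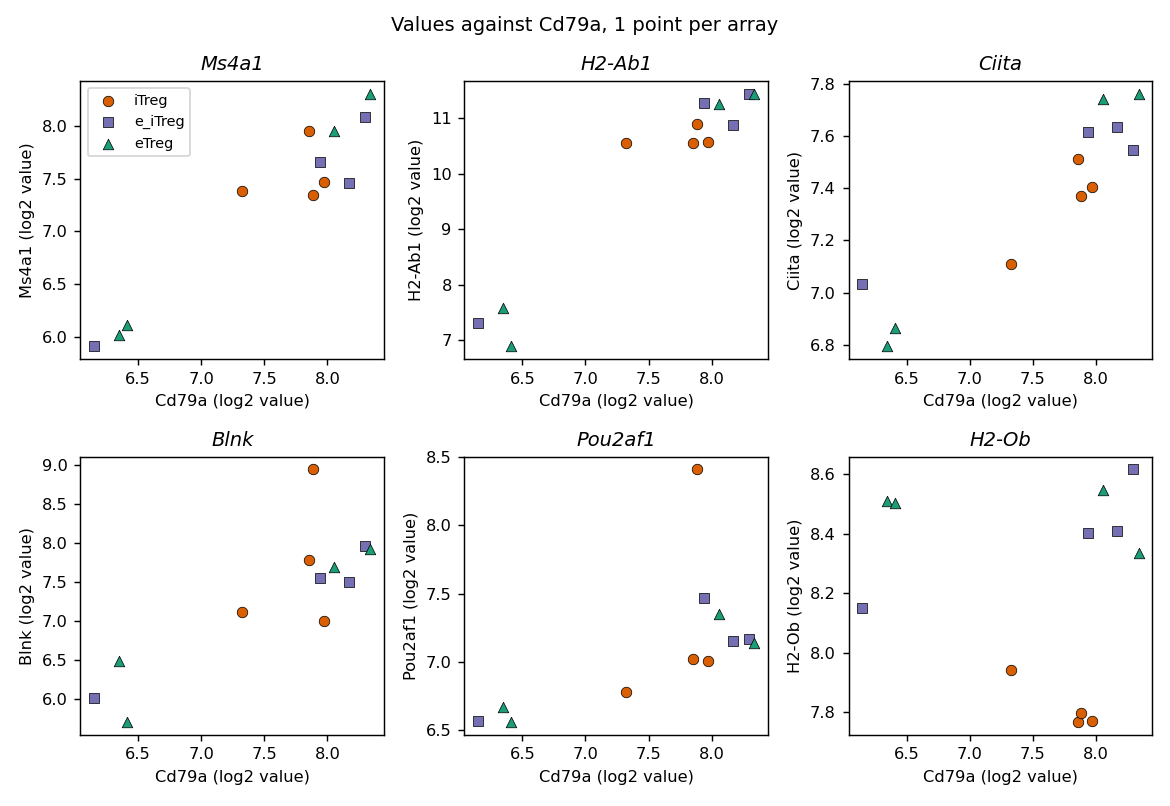
Log2 value of 6 genes (vertical axes) against that of Cd79a (horizontal axes), 1 point per array, with iTreg as circles, e_iTreg as squares and eTreg as triangles. Ms4a1, H2-Ab1 and Ciita are low in the 3 arrays with Cd79a below 6.5, Blnk and Pou2af1 have their highest point in iTreg replicate 4, and H2-Ob has all 4 iTreg arrays below the other 8 at any level of Cd79a.

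Genes outside the 31 that moved most like their mean were looked up over the 12 arrays with group means removed. The 10 with the highest Pearson r had r between 0.93 and 0.99, and they are a description, since the same 3 low arrays set them apart. The first 6 were on the lists of further B cell or class II genes. Fcer2a, the low-affinity IgE receptor CD23 of B cells, had r = 0.99 and rho = 0.96, and was 6.77, 6.39, 6.38 and 6.34 in iTreg replicates 1 to 4, 6.85, 7.27, 6.76 and 5.39 in e_iTreg replicates 1 to 4, and 7.24, 7.17, 5.44 and 5.57 in eTreg replicates 1 to 4. H2-DMb2, a beta chain of DM, had r = 0.98 and rho = 0.97, and was 9.05, 8.75, 8.44 and 8.34 in iTreg replicates 1 to 4, 9.39, 9.56, 8.995 and 6.15 in e_iTreg replicates 1 to 4, and 9.31, 8.96, 5.62 and 5.24 in eTreg replicates 1 to 4. It shares close sequence with H2-DMb1, which lay between 5.47 and 5.73 in iTreg, between 5.05 and 5.93 in e_iTreg and between 5.16 and 5.73 in eTreg, and the array may not separate the pair fully. Bcl11a, Scd1, Mef2c and Napsa came next, then Wdfy4, known for antigen cross-presentation in dendritic cells, Bcar3, Kmo and Mdm1, which were on no list.

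Markers of other cells were set beside these values. Plasma cell genes (12, with Pou2af1 among them) averaged between 8.03 and 9.49 in iTreg, between 7.80 and 8.14 in e_iTreg and between 7.72 and 8.07 in eTreg. Monocyte and macrophage genes (16) averaged between 6.89 and 8.55 in iTreg, between 6.37 and 6.94 in e_iTreg and between 6.44 and 6.94 in eTreg. Both maxima were iTreg replicate 4, where the other iTreg arrays reached no more than 8.35 and 7.12. Jchain and C1qb are named as examples chosen after their values were seen. Jchain, the joining chain of secreted IgM and IgA, was 11.69 in that array and between 6.67 and 8.18 in the other iTreg arrays. C1qb, a complement gene of macrophages, was 9.83 there and between 6.72 and 7.04 in the other iTreg arrays. The values of Blnk, Ly86 and Pou2af1 in iTreg replicate 4 stand beside these levels, and the part of plasma cells and macrophages in them was not tested. The plasma cell genes past the threshold were Prdm1, higher in iTreg, and Ell2, lower. Against eTreg they differed by 1.04 and -1.06 (limma adjusted p = 0.00364 and 0.00477). Against e_iTreg the differences were 0.94 and -0.97 (limma adjusted p = 0.00634 and 0.00795). Jchain passed in neither comparison (limma adjusted p = 0.0551 and 0.117).

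Dendritic cell genes (14) averaged between 7.08 and 7.12 in iTreg, between 6.95 and 7.34 in e_iTreg and between 6.76 and 7.19 in eTreg. Itgax, not among those with the smallest p, lay between 6.02 and 6.52 in iTreg, between 5.77 and 6.68 in e_iTreg and between 5.66 and 6.63 in eTreg. Those past the threshold were Bst2 and Cst3, higher in iTreg than in eTreg by 0.87 and 0.57 (limma adjusted p = 0.00891 and 0.0106). They were also higher than in e_iTreg, by 0.71 and 0.47 (limma adjusted p = 0.0255 and 0.0295). Siglech was lower than in e_iTreg, at -0.45 (limma adjusted p = 0.0298). Granulocyte genes (7) averaged between 6.37 and 7.35 in iTreg, between 5.87 and 6.74 in e_iTreg and between 5.88 and 6.65 in eTreg, with iTreg replicate 4 at 7.35 and the other iTreg arrays at no more than 6.56. NK cell and CD8 T cell genes (7) averaged between 6.35 and 6.77 in iTreg, between 6.28 and 6.68 in e_iTreg and between 6.19 and 6.59 in eTreg. Of the erythroid genes only Klf1 was measured, and it lay between 5.62 and 6.06 in iTreg, between 5.66 and 5.84 in e_iTreg and between 5.72 and 6.02 in eTreg. In e_iTreg replicate 4 the monocyte and macrophage mean was 6.37 and in eTreg replicates 3 and 4 it was 6.75 and 6.44, against 6.80 to 6.94 in the other e_iTreg and eTreg arrays. The same 3 arrays were the lowest of all 12 on every list of other cell types with more than 1 gene measured. In e_iTreg replicate 4 and eTreg replicates 3 and 4, the plasma cell mean was 7.80, 7.81 and 7.72, against at least 8.03 in the other 9 arrays. The dendritic cell mean was 6.95, 6.98 and 6.76, against at least 7.08. The granulocyte mean was 5.87, 5.88 and 5.91, against at least 6.22, and the NK and CD8 T cell mean was 6.28, 6.19 and 6.34, against at least 6.35. The low arrays were thus low on several lists and not in B cell and class II genes alone. The gap was small on the NK and CD8 T cell list (6.34 against 6.35), whose means lay near the array medians (6.28 to 6.50). Some genes count for B cells too, with Mzb1 and Pou2af1 in the plasma cell list and Irf8 in the dendritic cell list. The T cell and Treg means of the low arrays lay within or above the range of the rest, apart from the T cell mean of e_iTreg replicate 4 (11.41, against at least 11.44). How these markers bear on the B cell and class II values was not tested. Of these lists, 1 plasma cell gene was higher and 1 lower in iTreg than in eTreg, as were 2 and 0 of the dendritic cell genes, 2 and 0 of the monocyte and macrophage genes and 1 and 3 of the Treg genes, and none of the T cell, granulocyte, erythroid or NK and CD8 T cell genes passed. Against e_iTreg the numbers higher and lower were 1 and 1, 2 and 1, 3 and 0, and 1 and 3, with none again in the others. Over all probe sets 9.99% passed against eTreg and 11.2% against e_iTreg. Treg genes (13) averaged between 10.50 and 10.86 in iTreg, between 10.78 and 11.01 in e_iTreg and between 10.86 and 11.05 in eTreg.

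**Figure D4:**
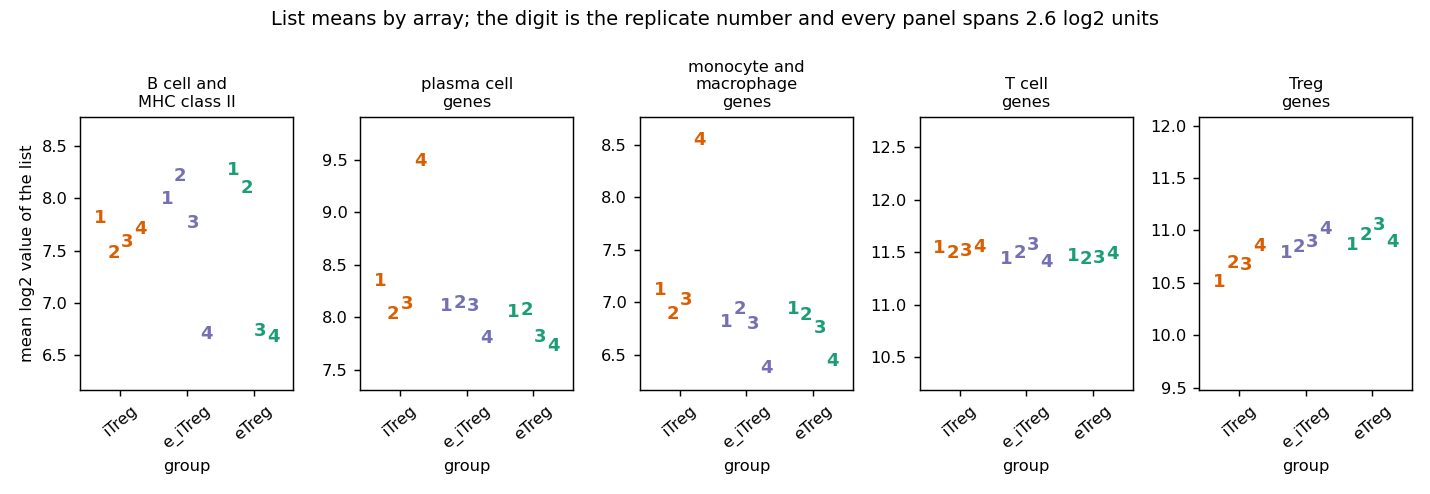
Mean log2 value of 5 gene lists (panels) in each array, by group from left to right, with the replicate number as the plotting symbol and panels of equal height in log2 units. The B cell and class II genes are lowest in e_iTreg replicate 4 and eTreg replicates 3 and 4, the plasma cell and macrophage lists are lowest in the same 3 arrays over a smaller span and highest in iTreg replicate 4, and the T cell genes stay within 11.41 to 11.57.

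Between groups, 2 of the 29 genes changed. Comparing iTreg with eTreg asks how Treg sorted after depletion and IVIg differ from endogenous Treg, and in limma's test over 23521 probe sets H2-Ob and Pou2f2 were lower and none was higher. Over all probe sets 4.63% were lower and 5.36% higher at the same threshold (adjusted p 0.05), 9.99% in all, so 2 of 29 is near that share. H2-Ob averaged 7.82 ± 0.08 in iTreg and 8.47 ± 0.09 in eTreg (SD, n = 4 each). Its log2 difference was -0.65 ± 0.10 (SE), with a limma adjusted p of 0.00189. Pou2f2 averaged 7.66 ± 0.14 in iTreg and 8.08 ± 0.13 in eTreg, a difference of -0.42 ± 0.10 with a limma adjusted p of 0.0155. That call was lost without eTreg replicate 2 (adjusted p = 0.0589) and without the 3 low arrays (adjusted p = 0.0553). It was also lost without the 3 low arrays and iTreg replicate 4 (adjusted p = 0.0860).

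Comparing iTreg with e_iTreg sets depletion against none under the same IVIg, with the same iTreg arrays. Again H2-Ob and Pou2f2 were lower and none was higher, against 4.75% lower, 6.49% higher and 11.2% in all over the whole table. H2-Ob averaged 8.39 ± 0.19 in e_iTreg, and its iTreg minus e_iTreg difference was -0.57 ± 0.10 with a limma adjusted p of 0.00348. Pou2f2 averaged 8.09 ± 0.09 in e_iTreg, and its difference was -0.42 ± 0.10 with a limma adjusted p of 0.0141. That call was lost without the 3 low arrays and iTreg replicate 4 (limma adjusted p = 0.0578). With the Cd79a level as a covariate, an alternative added after the data were seen, H2-Ob differed by -0.68 against eTreg and -0.58 against e_iTreg (adjusted p = 0.00219 and 0.00328), and Pou2f2 by -0.47 and -0.44 (adjusted p = 0.00738 and 0.00722). In that fit 2 of the other 28 genes passed against eTreg, where 7.87% of all probe sets did, and 3 against e_iTreg (Blk was the added one, at -0.41 with an adjusted p of 0.0366), where 11% did. Without iTreg replicate 4 as well, 2 genes passed in each, where 6.92% and 9.04% of all probe sets did.

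H2-Oa, the partner of H2-Ob, did not pass. Its difference was -0.50 ± 0.19 against eTreg (adjusted p = 0.123) and -0.53 ± 0.19 against e_iTreg (adjusted p = 0.0866). Its lowest array was iTreg replicate 4 at 7.98, and iTreg replicate 2 at 8.96 lay within the range of the other groups. It passed against eTreg in 3 of 26 settings, which were array weights (adjusted p = 0.0496), without eTreg replicate 4 (0.0487) and without iTreg replicate 2 (0.0368). Against e_iTreg it passed in 4 of 26, which were array weights (0.0431), the replicate block (0.0425), without iTreg replicate 2 (0.0276) and a threshold of 0.1.

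The remaining 26 genes did not pass in either contrast, and the swings within groups set how much could be seen. Over the 29 genes the SE of the log2 differences had a median of 0.383, against 0.121 over all probe sets. H2-Ab1 averaged 10.64 ± 0.17 in iTreg and 9.29 ± 2.39 in eTreg, a difference of 1.35 with a 95% interval of -0.76 to 3.46 (adjusted p = 0.505). Cd79a averaged 7.76 ± 0.29 in iTreg and 7.29 ± 1.06 in eTreg, a difference of 0.47 with an interval of -0.55 to 1.50 (adjusted p = 0.672). Intervals of this width hold sizeable differences in either direction.

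The direction of the remainder turned on the low arrays. The median iTreg minus eTreg difference of the 29 genes was 0.13 over all arrays, against -0.01 over all probe sets, and it was -0.53 without the 3 low arrays. Against e_iTreg the median was 0.06, with -0.07 over all probe sets, and it was -0.45 without those arrays. In that smaller set, which left 4 iTreg, 3 e_iTreg and 2 eTreg arrays, Fcmr was lower in iTreg, with a log2 difference of -1.23 ± 0.23 against eTreg and -0.91 ± 0.21 against e_iTreg (limma adjusted p = 0.0296 and 0.0257). Together with H2-Ob it made 2 genes past the threshold against eTreg, where 1.7% of all probe sets passed. Against e_iTreg there were 5, all lower (H2-Ob, Fcmr, Pou2f2, Blk and H2-Ab1), where 5.77% of all probe sets passed. Without iTreg replicate 4 as well, H2-Ob, Fcmr and H2-Ab1 passed in each comparison, where 2.06% of all probe sets passed against eTreg and 4.6% against e_iTreg. The arrays left out had been picked for low values of these genes, so these differences describe the arrays that remain and are no evidence of a change in B cell transcripts.

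**Figure D5:**
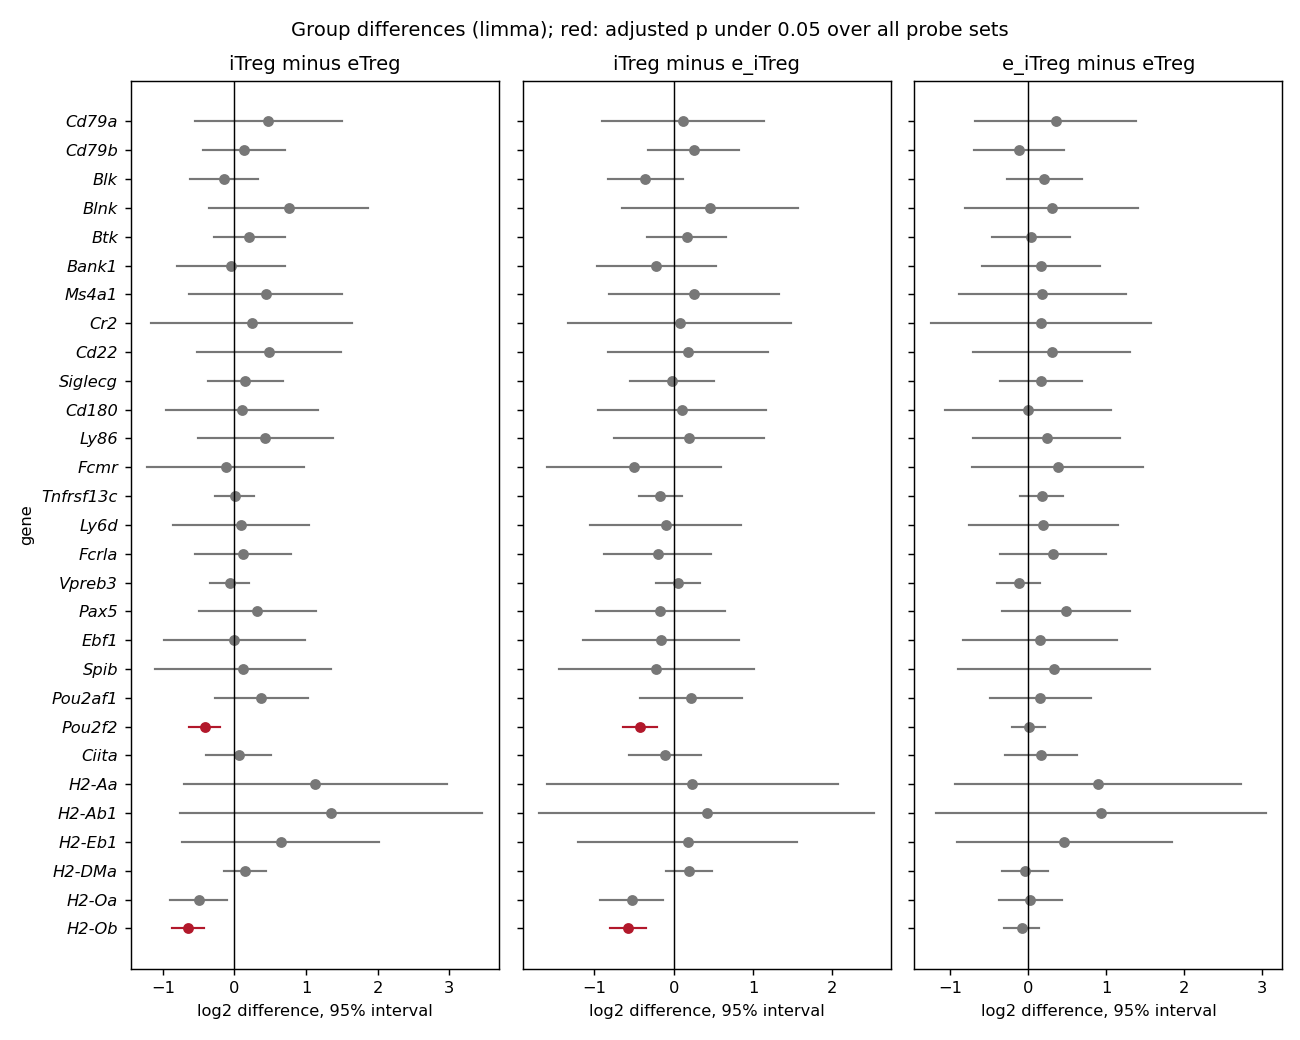
Log2 difference (point) and 95% interval (line) of each of the 29 genes in the 3 comparisons, 4 arrays per group, with genes past the limma adjusted p of 0.05 in red. Only H2-Ob and Pou2f2 are red, both below 0 in the comparisons of iTreg with eTreg and with e_iTreg, and the widest lines are those of H2-Ab1 and H2-Aa.

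Comparing e_iTreg with eTreg asks what IVIg changed in animals that kept their endogenous Treg. None of the 29 genes passed limma's test, nor had any an unadjusted p under 0.05, and over all probe sets 0% passed, with 7.01% under an unadjusted p of 0.05. The smallest adjusted p among the 29 was 0.744, for Tnfrsf13c, with a difference of 0.17 ± 0.13. The median difference was 0.17, against 0.03 over all probe sets, ran from -0.01 to 0.54 when arrays were left out in turn, and was -0.15 without the 3 low arrays. The 3 comparisons share arrays with each other and are not independent.

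Further genes of both programmes were read from lists drawn up for B cells and for the class II pathway. Of 33 other B cell genes measured, 5 were lower in iTreg than in eTreg and none higher, and 7 were lower than in e_iTreg and none higher. Over all probe sets 4.63% were lower against eTreg and 4.75% against e_iTreg. The 5 were Bcl6 (-0.81 ± 0.14), Cd86 (-0.85 ± 0.15), Cd55 (-0.58 ± 0.15), Swap70 (-0.36 ± 0.10) and Cd83 (-0.74 ± 0.21) as log2 differences with SE. Each of them was also lower than in e_iTreg, where Hhex, a homeobox factor, and Cd81, a tetraspanin, joined them at -0.44 ± 0.10 and -0.50 ± 0.13. Cd83 and Cd81 are named to complete the counts, after their values were seen. Bcl6, Cd86, Cd55 and Cd81 are known in T cells as well. Fcer2a and Bcl11a, whose levels moved with the 29 genes, did not pass. Cd86 was 10.21, 9.79 and 9.17 in e_iTreg replicate 4 and eTreg replicates 3 and 4. In the other e_iTreg and eTreg arrays Cd86 lay between 9.34 and 9.91. Cd83 was 8.86, 8.87 and 8.08 in the same 3 arrays and between 8.25 and 9.01 in the other e_iTreg and eTreg arrays. Cd86 and Cd83 were thus not low throughout the 3 arrays low in B cell transcripts.

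Of 17 other genes of the class II pathway, 2 were higher in iTreg than in eTreg and 3 than in e_iTreg, and none was lower, where 5.36% and 6.49% of all probe sets were higher. Ifi30, the lysosomal thiol reductase that opens disulfide bonds of antigens, was 9.64, 9.44, 9.37 and 9.68 in iTreg replicates 1 to 4, 8.66, 8.97, 8.31 and 7.80 in e_iTreg replicates 1 to 4, and 9.08, 8.37, 7.81 and 7.66 in eTreg replicates 1 to 4. All iTreg arrays lay above all others, by 1.30 ± 0.28 over eTreg and 1.09 ± 0.28 over e_iTreg (limma adjusted p = 0.00754 and 0.0196). Lgmn, the lysosomal protease legumain, was higher by 1.46 ± 0.34 and 1.42 ± 0.34 (limma adjusted p = 0.0126 and 0.0149), with iTreg replicate 4 its highest array at 10.51 and the other iTreg arrays between 9.20 and 9.30. Nfyb, a subunit of the factor that binds the Y box, was higher by 0.76 ± 0.18 against e_iTreg (limma adjusted p = 0.0125). Ctss, the protease that trims the class II chaperone, lay between 10.36 and 10.64 in iTreg, between 10.45 and 10.84 in e_iTreg and between 10.67 and 11.03 in eTreg and did not pass against eTreg (-0.38 ± 0.12, limma adjusted p = 0.0548). Among the monocyte and macrophage genes, Itgam, an integrin chain of myeloid cells, was also higher in iTreg, by 1.68 ± 0.29 over eTreg and 1.71 ± 0.29 over e_iTreg (limma adjusted p = 0.00254 and 0.00247), and lay between 7.77 and 8.99 in iTreg, between 5.85 and 7.29 in e_iTreg and between 6.30 and 7.10 in eTreg. Ccr2, a chemokine receptor of monocytes, was higher by 1.96 ± 0.39 and 1.90 ± 0.39 (limma adjusted p = 0.00529 and 0.00632). The part of myeloid cells in the Ifi30 and Lgmn values was not tested. In the e_iTreg and eTreg groups Ifi30 was lowest in the same 3 arrays that were low in B cell transcripts.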

How the data were processed

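RNA from sorted spleen Treg (2 ng per sample, amplified in 2 cycles) was hybridised to 12 Affymetrix arrays, 4 in each of 3 groups. The deposited log2 values were background-corrected, normalised and summarised per probe set by the authors with oligo and RMA, per the submitters' processing notes, whose versions are not stated. The number of arrays limits the precision.

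Of 41345 probe sets, 23521 had 1 gene symbol in the platform annotation, 1814 had several and 16010 had none. The 23521 were fitted with limma 3.58.1 (R 4.3.3), all 3 groups in 1 model with 9 residual degrees of freedom, and p-values were adjusted by Benjamini-Hochberg over all of them, with a threshold of 0.05. Replicates are called biological, with no word on whether animals were pooled, so a p-value reflects only the spread of these arrays. The members and lists were chosen with earlier results of these data known. All members are named. Of the other lists the counts are given, and genes were named from the up to 4 with the smallest p. Not all of those 4 are named for every list. Exceptions are Itgax, H2-DMb1 and genes said in the text to be named after their values were seen. Correlations with Cd79a used permutation tests coded directly in Python 3.11.15. Their planned adjustment over the members was dropped, so these p-values are unadjusted. Sequences are RefSeq's, on GRCm38.p6. The limma step was tested on simulated data. Alternatives covered normalisation, dim probe sets (mean log2 under 6), the error model, array weights, the replicate block and arrays left out.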

Additional observations from a re-analysis of the deposited data

Results flagged for a closer look

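In 8 of the 87 sets of 4 arrays (29 genes in 3 groups), 1 array stood apart from the other arrays of its group by Dixon's test, and chance gives about 1 in 20. In e_iTreg replicate 4, Cd79a was 6.15 (7.94 to 8.30 in the other e_iTreg arrays), Ciita was 7.03 (7.55 to 7.63) and H2-Ab1 was 7.32 (10.87 to 11.44). In iTreg replicate 4, Pou2af1 was 8.41 (6.77 to 7.02 in the other iTreg arrays) and H2-Ab1 was 10.89 (10.55 to 10.56). The low Ly6d value of iTreg replicate 3 was 7.51 (7.84 to 7.90). Vpreb3 was high in e_iTreg replicate 2 at 6.21 (6.01 to 6.03) and in eTreg replicate 2 at 6.38 (6.11 to 6.14). The low values of eTreg replicates 3 and 4 come as a pair, which Dixon's test on 4 values does not pick out.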

How the results depend on the processing

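The number of the 29 genes past the threshold was 2 against eTreg, 2 against e_iTreg and 0 between e_iTreg and eTreg. With 1 array left out in turn it was 1 to 3, 2 to 3 and 0 to 0, and the lowest, 1, came without eTreg replicate 2. Array weights gave 3, 3 and 0, adding H2-Oa. H2-Ob passed in all 26 settings of both iTreg comparisons, and Pou2f2 in 23 against eTreg and 25 against e_iTreg. Leaving out the 3 low arrays gave 5 genes against e_iTreg and medians of -0.53 against eTreg and -0.45 against e_iTreg, with -0.15 between e_iTreg and eTreg, and leaving out iTreg replicate 4 as well gave -0.52, -0.37 and -0.15. With 1 array left out, the median ran from -0.05 to 0.38 against eTreg, from -0.45 (without e_iTreg replicate 4) to 0.12 against e_iTreg, and from -0.01 to 0.54 between e_iTreg and eTreg.

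The number of genes following Cd79a over the arrays was 13 without the 3 low arrays, 12 without iTreg replicate 4 as well, and 21 to 24 with 1 array left out. Within groups it was 7 without the 2 arrays farthest from the median of Cd79a, 1 without the 3 low arrays and 8 to 23 with 1 array left out. Fewer arrays also give these tests less reach.

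Deviations of same-numbered samples from their group means correlated at -0.15 to 0.24, 3 of 12 over 0.1. Between e_iTreg and eTreg the correlations ran from 0.07 to 0.24, the highest for replicate 4. Such values cannot settle whether the numbers pair the samples. With the replicate block the counts were 2 against eTreg, 3 against e_iTreg (with H2-Oa, adjusted p = 0.0425) and 0. The second-brightest probe set could not be tried, since each gene had 1. Arrays left out for their B cell levels and the Cd79a covariate were chosen after seeing the data.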
